A study of Mus musculus with 4 samples.

Results

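The cells described here are the non-cycling CD8 T cells of B16-F10 melanoma tumours in which no transcript of Pdcd1 was counted. Pdcd1 encodes the inhibitory receptor PD-1. They numbered 451 of the 8675 tumour barcodes that passed the quality limits, and of 23157 in all 4 libraries of the series. A member had at least 2 unique molecular identifiers (UMIs, each standing for 1 captured transcript) from Cd3d, Cd3e and Cd3g together and at least 1 from Cd8a or Cd8b1. It had none from Cd4, Foxp3, C1qa or Pdcd1, and at most 1 from the proliferation genes Mki67 and Top2a. The membership rule therefore used measured values, and the levels of those genes are no result.

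The series compared wild-type mice (WT) with Ndufa4-deficient mice, labelled Ndufa4KO (KO below), in droplet single-cell RNA sequencing of sorted immune cells. All animals were male, 8 weeks old and on the C57BL/6 background, and all carried a subcutaneous tumour grown from B16-F10, a mouse melanoma line, taken on day 18 after implantation. Tumour cells were sorted for CD45, a protein of all leukocytes, with no selection for T cells, and spleen cells for CD45 and CD11b. Equal cell numbers per mouse, from 3 mice of a genotype by the design text and 3 to 4 by the protocol, were pooled into 1 library per organ, so the 2 tumour libraries compared here are 1 WT and 1 KO. Single mice cannot be told apart in a pool, so the spread between mice is unknown and every comparison is between these 2 libraries, with no p-value. The intervals below are exact 95% intervals (Newcombe's for a difference of shares) and cover counting error only. The sources used here do not say which cells carry the deletion. In the members, Ndufa4, a subunit of respiratory complex IV, had 278 UMIs in the WT and 5 in the KO library, so the transcript was nearly absent where the label says it should be.

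CD8 T cells leave the thymus as naive cells that recirculate through lymph nodes, using the chemokine receptor Ccr7 to enter and the lipid receptor S1pr1 to leave. After antigen recognition they lose that programme, become effector or memory cells armed with granzymes, perforin and interferon gamma, and under lasting stimulation in a tumour acquire PD-1 and other inhibitory receptors. CD8 cells without Pdcd1 in a tumour can thus be naive, memory, newly arrived or bystander cells, and a cell whose Pdcd1 transcript was missed looks the same.

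The members made up 129 of 4019 kept barcodes in the WT tumour (3.21%, 2.69 to 3.80) and 322 of 4656 in the KO tumour (6.92%, 6.20 to 7.68). The KO share was 3.71 percentage points higher (2.79 to 4.62). Among non-cycling CD8 T cells alone, cells without Pdcd1 were 47.6% of 271 in WT and 42.6% of 756 in KO, a difference of -5.01 points whose interval (-11.9 to 1.85) spans 0. When the whole rule was applied after thinning every barcode to 2000 UMIs, these shares became 61.6% and 65.6%, a difference of 4.00 points (-1.96 to 10.1). All CD8 T cells, cycling ones included, numbered 413 of the kept barcodes in WT and 1203 in KO. The members were thus more frequent in the KO tumour along with the other CD8 T cells. Their fraction of the non-cycling CD8 cells depended on the rule: it was lower in KO by -9.43 points (-18.1 to -0.648) without barcodes that had any UMI of Lyz2, Cd79a, Mlana, Hbb-bs or Trdc, and by -7.09 (-14.1 to -0.0886) with at least 2 UMIs of Cd8a or Cd8b1.

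The members held a median of 8259 UMIs in WT and 7954.5 in KO, between 605 and 32258 per cell, and 1101811 and 2733911 UMIs in total. Cells with Pdcd1 were deeper, with medians of 10249 and 10951 UMIs. The tumour libraries shared 6 barcodes, of which 0 were members. Of the members, 10 in WT and 17 in KO had at least 0.5% of their UMIs from 40 genes of macrophages, neutrophils, dendritic cells, B cells, melanoma or red cells. They are called other-lineage barcodes below, and results that rest on them are given with and without them. Levels are counts per 1000000 UMIs of the summed cells (CPM). Macrophage genes summed to 931 CPM in WT and 1347 in KO members, and to 247 and 292 without these barcodes. Neutrophil genes summed to 745 and 417, and to 80.7 and 19.1 without them. Natural killer (NK) cell genes, a list that includes Fcer1g and Tyrobp, summed to 514 and 678, and to 175 and 350 without them. The KO other-lineage barcodes held 970 UMIs of the NK list, with no UMI of Ncr1, Klrb1c or Klra8. Gamma-delta T cell genes summed to 43.6 and 203, and to 49.7 and 219 without them, beside 5204 and 5982 for the core T cell genes.

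Of the genes proposed as markers, Cd8a had a UMI in 89.1% of WT and 87.3% of KO members and Cd8b1 in 92.2% and 85.7%. The rule required a UMI of Cd8a or Cd8b1, so these shares are no result. S1pr1 had a UMI in 63.6% and 50.3% of members. Gzmk, a granzyme of memory-type CD8 cells, did not mark them. It had a UMI in 24.8% of WT members against 64.1% of WT cells with Pdcd1, and in 33.2% of KO members against 35.5% of KO cells with Pdcd1. The set is therefore named here by its rule rather than as a Gzmk-bearing type.

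The members were a mixture, and the proportions differed between the libraries. To describe it, each cell was placed in the first class whose condition it met: other-lineage barcodes, at least 2 UMIs from Fcer1g, Tyrobp, Ikzf2 and Trdc, at least 2 from Ccr7 and Lef1, at least 2 from Gzma, Gzmb and Gzmk, or none of these. The classes were chosen after the data had been seen and are ranges of counts, not cell types. Fcer1g and Tyrobp are signalling adaptors of innate-like lymphocytes and also of myeloid cells. Ikzf2 encodes Helios and Trdc the delta chain constant region, while Lef1 is a transcription factor of naive T cells.

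**Figure D1:**
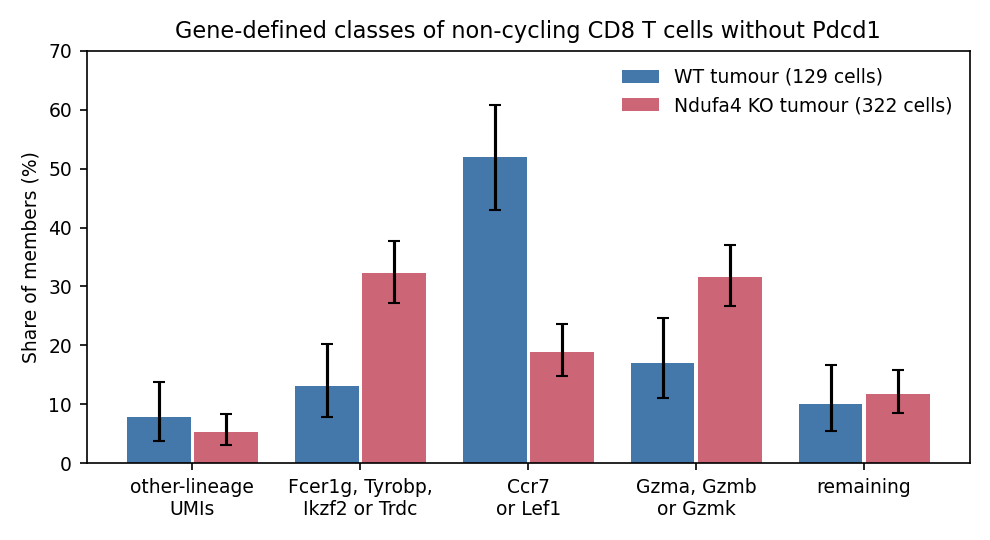
Share of the members (percent, vertical axis) in each gene-defined class for the WT (129 cells) and KO (322 cells) tumour library. Bars are shares and error bars are exact 95% binomial intervals for counting error; the Ccr7 and Lef1 class is the largest in WT at 51.9% and falls behind the other 2 gene classes in KO at 18.9%.

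Cells of the Ccr7 and Lef1 class were 67 of 129 members in WT (51.9%, 43.0 to 60.8) and 61 of 322 in KO (18.9%, 14.8 to 23.7). The Fcer1g class was 17 cells in WT (13.2%, 7.87 to 20.3) and 104 in KO (32.3%, 27.2 to 37.7). Its macrophage genes summed to 268 CPM in WT and 415 in KO cells. Those genes summed to 231 and 173 in the Ccr7 and Lef1 class, and to 236 and 246 in the granzyme class. The part of other-lineage transcripts in the Fcer1g class was not tested. The granzyme class was 22 cells in WT (17.1%) and 102 in KO (31.7%), a difference of 14.6 points (5.76 to 22.3). The plot of class shares shows the order reversed between the libraries. As a share of all kept tumour barcodes, the Ccr7 and Lef1 class was 1.67% in WT and 1.31% in KO, a difference of -0.357 points (-0.887 to 0.153). The Fcer1g class was 0.423% and 2.23% of kept barcodes, and the granzyme class 0.547% and 2.19%. Cells in none of the gene classes were 0.323% and 0.816%, a difference of 0.493 points (0.174 to 0.823). The KO shares of kept barcodes were thus higher in the Fcer1g class, the granzyme class and these remaining cells. With every member thinned to 2000 UMIs, the Ccr7 and Lef1 class was 29.6% of WT and 5.75% of KO members, the Fcer1g class 8% and 19.5%, and the granzyme class 11.2% and 28.1%. Trdc itself had a UMI in 0.775% of WT and 7.14% of KO members. It was also seen in 35.5% of WT and 33.6% of KO NK cells of the same tumours, so it does not tell gamma-delta cells from NK cells here.

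The genes of recirculating and naive T cells were lower in KO than in WT members. A gene was called when its level differed at least 1.5-fold between the libraries and the exact interval of the ratio excluded no change, among genes with at least 50 UMIs over both. By this rule 615 of 7101 genes were higher in KO members (8.66% of those tested) and 318 were lower (4.48%), and the median log2 ratio of KO over WT over all genes was 0.09. The split between directions depended on the scale. With the total taken without mitochondrial, ribosomal and T cell receptor genes, which moved the all-gene median by -0.107, it was 422 higher and 452 lower. Without other-lineage barcodes 615 genes were higher (9.14%) and 253 lower (3.76%) of 6731.

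All 16 recirculation genes of the list passed the filter. In KO members 12 were called lower and 0 higher (median log2 ratio -0.90). Without other-lineage barcodes the count was again 12 of 16, with a median of -0.97. The homing receptor Ccr7 stood at 160 CPM in WT and 75.3 in KO members, a log2 ratio of -1.08 (-1.38 to -0.79). Its level was lower in KO, but its ratio went to 0.11 when the rule was applied after thinning, and the list median to -0.60. That form of the rule can also admit cells with Pdcd1, Cd4, Foxp3, C1qa, Mki67 or Top2a among their uncounted transcripts.

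The transcription factors of the same programme followed it. Lef1 was at 384 and 134 CPM (log2 ratio -1.52, -1.72 to -1.31), and Tcf7, its partner factor in memory and stem-like T cells, at 425 and 229 (-0.89). Satb1, a chromatin organiser of thymocytes and naive cells, was at 630 and 347 (-0.86). Klf2, which drives S1pr1 expression, was near equal at 423 and 377 (-0.17) and was not called. S1pr1 was at 238 and 141 (-0.75, -0.98 to -0.52), and Il7r, the receptor for the survival cytokine IL-7, at 835 and 489 (-0.77). Less abundant genes of the list were also lower: Dapl1 was at 139 and 46.8 (-1.57), Igfbp4 at 56.3 and 14.3 (-1.98) and Actn1 at 157 and 59.3 (-1.41). With the KO classes weighted to the class shares of the WT library, the list median was -0.52 in place of -0.90. Ccr7 and Lef1 of this list also define a class, so a shift toward the WT level was partly fixed in advance.

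The same difference appeared as a share of cells. With cells thinned to 2000 UMIs, Ccr7 had a UMI in 24% of 125 WT and 10.9% of 313 KO members. Tcf7 had one in 52.0% and 28.4%, against 0% of B cells in either tumour library. The S1pr1 shares, 29.6% and 24%, differed by -5.64 points with an interval (-15.2 to 3.22) that spans 0. Unthinned, Ccr7 had a UMI in 56 of 129 WT and 74 of 322 KO members.

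**Figure D2:**
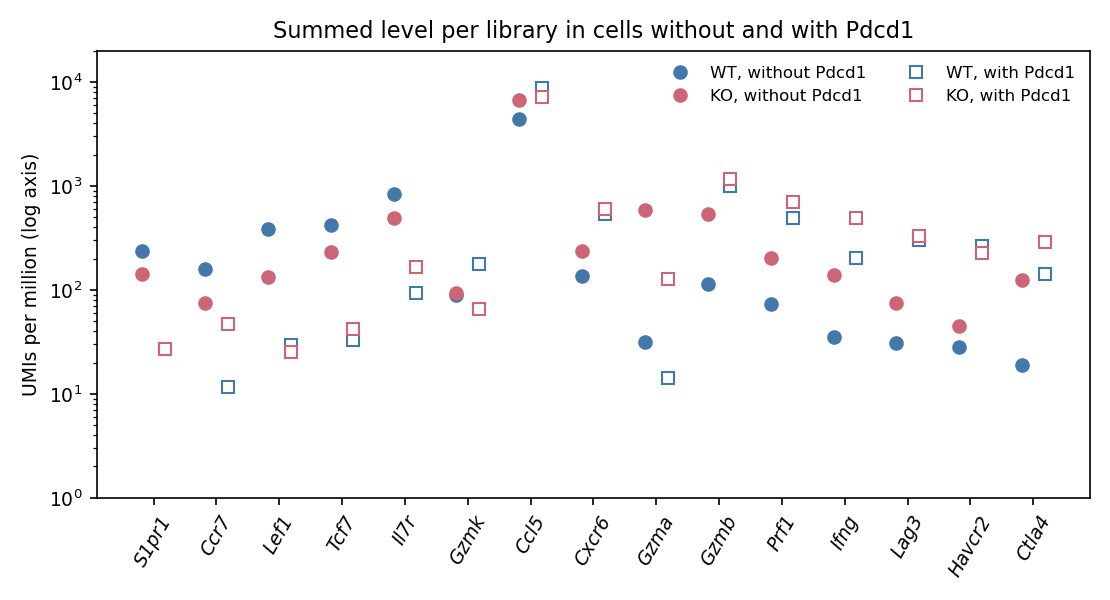
Summed level (CPM, log axis) of members of the main gene lists in the WT and KO tumour libraries, in cells without and with Pdcd1; each point is 1 pooled library. Ccr7, Lef1 and Tcf7 are lower in KO than in WT cells without Pdcd1, while Gzma and Gzmb are higher; the S1pr1 marks of WT and KO cells with Pdcd1 coincide.

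Cytotoxic genes were higher in KO members. Of 14 listed, 12 passed the filter, 8 were called higher and 0 lower. Their median log2 ratio was 1.60, and 1.54 without other-lineage barcodes. Gzmb, the granzyme of activated killer cells, was at 113 CPM in WT and 542 in KO (2.26, 1.99 to 2.53), with a UMI in 22 and 190 cells. Gzma was at 31.8 and 589 (4.21, 3.73 to 4.74), with a UMI in 12 and 94 cells. Of the KO Gzma UMIs, 38.1% came from 5 cells. Gzmk was level at 89.9 and 94.0 (0.07, -0.28 to 0.42), so the granzymes did not move together. Prf1, encoding perforin, was at 72.6 and 202 (1.48), Fasl at 44.5 and 148 (1.73), and Serpinb9, an inhibitor of granzyme B, at 23.6 and 172 (2.87).

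After thinning to 2000 UMIs, Gzmb had a UMI in 9.6% of WT and 37.4% of KO members, a difference of 27.8 points (19.5 to 34.6). The B cells of the same tumours, which should lack it, gave 1.27% and 2.13%. Gzma was in 5.6% and 18.2% of members against 0% and 6.38% of B cells. Unthinned, Gzmb was in 17.1% and 59.0% and Gzma in 9.3% and 29.2% of members. Median depths were 5484 and 6258 UMIs in the B cells.

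Among cytokines and chemokines, 6 of 8 were called higher and 1 lower, with a median of 1.31. Ifng, encoding interferon gamma, was at 35.4 and 139 CPM (1.97, 1.5 to 2.49), with a UMI in 8 WT and 104 KO cells. After thinning it was in 3.2% of WT and 13.4% of KO members, beside 0% and 8.51% of B cells. Xcl1, which attracts cross-presenting dendritic cells, was at 44.5 and 197 (2.15). The KO level was the higher of the pair for both genes, and the plot of summed levels shows the same for Prf1 and Ctla4. Ccl5 was the most abundant of them at 4366 and 6778 (0.63), and went to -0.04 when the rule was applied after thinning. Ccl3 depended on a few barcodes. It was at 193 in WT and 125 in KO (-0.62), with 83.6% of its WT UMIs in other-lineage barcodes, and at a log2 ratio of 1.86 without them.

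Effector memory genes were called higher in 11 of 16 and lower in 0, with a median of 0.76 and 0.84 without other-lineage barcodes. Ly6c2 was at 633 and 1424 CPM (1.17), although the counting could split reads between it and its close relatives. The T-box factors Tbx21 and Eomes were at 14.5 and 45 (1.63) and at 41.7 and 70.6 (0.76), but Eomes went to -1.12 when the rule was applied after thinning. S100a4, a calcium-binding protein of motile cells, was at 351 and 811 (1.21). The activation marker Cd44 (-0.13) was not called. With the KO classes weighted to the WT shares the list median was 0.49.

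NK receptor genes, which memory and innate-like CD8 cells also use, were called higher in 6 of 11 and lower in 0 (median 1.05). Klrk1, encoding NKG2D, was at 135 and 424 CPM (1.65). Klrc1, the inhibitory receptor NKG2A, was at 18.2 and 139 (2.93, 2.29 to 3.66). Its relative Klrc2, close enough in sequence that counts may be split between them, was at 45.4 and 231 (2.35). Klrc1 had a UMI in 1.6% of WT and 20.8% of KO members after thinning. Without other-lineage barcodes 8 of 11 were called higher (median 1.64), and with the Fcer1g class left out as well the list median was 2.65. Within the Fcer1g class, 4 of 11 were called higher and 1 lower (median 0.23). Gamma-delta T cell genes were called higher in 4 of 4 that passed the filter, with a median of 1.69, and their part in these values was not tested.

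Even without a Pdcd1 transcript, KO members as a whole carried more of several other inhibitory receptors. Of 16 exhaustion genes listed, 13 passed the filter, 10 were called higher and 0 lower (median 1.06, and 0.98 without other-lineage barcodes). With equal weight for each cell, 5 of 13 were called higher and 0 lower (median 0.56). Within the granzyme class the list went the other way, with 2 of 9 called higher and 4 lower (median -0.40), and within the Fcer1g class 4 of 8 were called higher and 0 lower (median 1.36). Ctla4 was at 19.1 and 126 CPM (2.72, 2.09 to 3.43) and Lag3 at 30.9 and 75.0 (1.28, 0.75 to 1.85). Both receptors were higher in KO, at levels below those of cells with Pdcd1, where Ctla4 was at 143 and 287 and Lag3 at 305 and 333. Tox, the transcription factor of the exhausted state, was level at 96.2 and 104 (0.12). Havcr2, encoding TIM-3, was at 28.1 and 45.4 (0.69). The list median was 0.04 when the rule was applied after thinning, and that of the cytotoxic list 0.33, that of effector memory genes 0.36 and the Gzmb ratio 0.37. With every limit applied to thinned counts, cells with few transcripts of Pdcd1, Cd4, Foxp3, C1qa, Mki67 or Top2a can enter the members.

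Immediate early genes, which are switched on within minutes of T cell receptor signalling and also by cell handling, were called higher in 16 of 27 and lower in 0 (median 0.74, or 1.13 without other-lineage barcodes). Nr4a2 was at 16.3 and 168 CPM (3.36, 2.69 to 4.13) and Nr4a1 at 4.54 and 42.4 (3.23), both nuclear receptors induced by antigen signals. Fos was at 66.3 and 356 (2.42), and Dusp5, a phosphatase that damps ERK signalling, at 42.7 and 246 (2.53, 2.10 to 2.99). Fosb stood at 42.7 and 229 (2.42). The same list was called higher in 20 of 29 and lower in 1 in KO cells with Pdcd1 (median 1.20). The part of cell handling in these values was not tested.

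Interferon-response genes were higher in KO members, and several carry a known DNA element in the promoter. Type I interferon genes were called higher in 23 of 44 and lower in 0 (median 0.63), and in 16 of 43 without other-lineage barcodes (median 0.45). Interferon gamma response genes were called higher in 17 of 25 and lower in 0 (median 0.83), and in 15 of 24 without those barcodes (median 0.82). The interferon-stimulated response element, bound by interferon regulatory factors, has the core GAAANNGAAA. It was searched on both strands, as GAAANNGAAA or its reverse complement TTTCNNTTTC with overlapping matches counted, in the 250 bases before the annotated start of each gene. These letters were found in 821 of 27025 promoters (3.04%). They were found in 19 of 42 promoters of the type I list (45.2%), in 11 of 20 of the interferon gamma list (55.0%), in 3 of 13 of the cytotoxic list (23.1%) and in 0 of 14 of the recirculation list. A match is a description of the sequence and not a bound site.

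Shown are 5 promoters from the RefSeq table for GRCm38.p6, each as 250 bases on the strand of its gene, because these genes were higher in KO members and their windows hold the element. Capitals mark the matches. Cxcl10 lies at chr5:92348890-92349139 on the minus strand, Isg15 at chr4:156200819-156201068 on the minus strand, Ifit1 at chr19:34640639-34640888 on the plus strand, Gbp2 at chr3:142620413-142620662 on the plus strand and Gzma at chr13:113100982-113101231 on the minus strand.
Cxcl10: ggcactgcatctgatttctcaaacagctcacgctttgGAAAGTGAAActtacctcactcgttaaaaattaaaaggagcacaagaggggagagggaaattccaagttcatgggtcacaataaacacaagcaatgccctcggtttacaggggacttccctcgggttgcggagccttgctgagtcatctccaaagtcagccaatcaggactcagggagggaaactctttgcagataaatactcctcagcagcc
Isg15: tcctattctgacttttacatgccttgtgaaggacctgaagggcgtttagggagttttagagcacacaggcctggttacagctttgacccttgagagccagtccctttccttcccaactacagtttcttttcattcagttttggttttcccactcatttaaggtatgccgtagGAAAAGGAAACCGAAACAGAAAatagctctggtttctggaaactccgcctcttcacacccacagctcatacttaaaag
Ifit1: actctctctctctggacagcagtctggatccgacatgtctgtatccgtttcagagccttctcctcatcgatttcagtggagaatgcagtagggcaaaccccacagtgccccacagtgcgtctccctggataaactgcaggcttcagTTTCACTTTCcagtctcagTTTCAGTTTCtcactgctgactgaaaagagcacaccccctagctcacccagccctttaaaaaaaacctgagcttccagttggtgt
Gbp2: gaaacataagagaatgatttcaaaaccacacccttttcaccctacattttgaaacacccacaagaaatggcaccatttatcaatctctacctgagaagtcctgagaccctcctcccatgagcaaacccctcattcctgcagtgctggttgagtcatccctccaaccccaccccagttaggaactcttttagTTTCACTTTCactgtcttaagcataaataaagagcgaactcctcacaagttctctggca
Gzma: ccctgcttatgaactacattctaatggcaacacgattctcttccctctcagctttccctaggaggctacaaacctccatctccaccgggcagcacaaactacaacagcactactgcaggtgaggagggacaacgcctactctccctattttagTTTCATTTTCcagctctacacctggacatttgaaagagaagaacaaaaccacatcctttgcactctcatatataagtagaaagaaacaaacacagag

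The Isg15 window holds 3 overlapping matches, the Ifit1 window 2, and those of Cxcl10, Gbp2 and Gzma 1 each. Isg15, a ubiquitin-like protein, was at 30.0 CPM in WT and 105 in KO members (1.81, 1.29 to 2.38). Ifit1, which binds foreign RNA, was at 25.4 and 53.4 (1.07, 0.48 to 1.71), and Gbp2, a GTPase induced by interferon gamma, at 49.0 and 192 (1.97, 1.56 to 2.40). All of these were higher in KO. Irf1, an interferon regulatory factor, was at 152 and 346 (1.19, 0.95 to 1.44). Cxcl10, a chemokine better known from myeloid cells, was at 6.35 and 166 (4.70). Of its KO UMIs, 83.9% came from 5 cells and 44.4% from other-lineage barcodes, and the ratio without those barcodes was 3.79. After thinning, Gbp2 had a UMI in 8% of WT and 23.6% of KO members, while B cells gave 3.8% and 12.8%, so its KO level was also the higher of the pair in that other cell type.

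**Figure D3:**
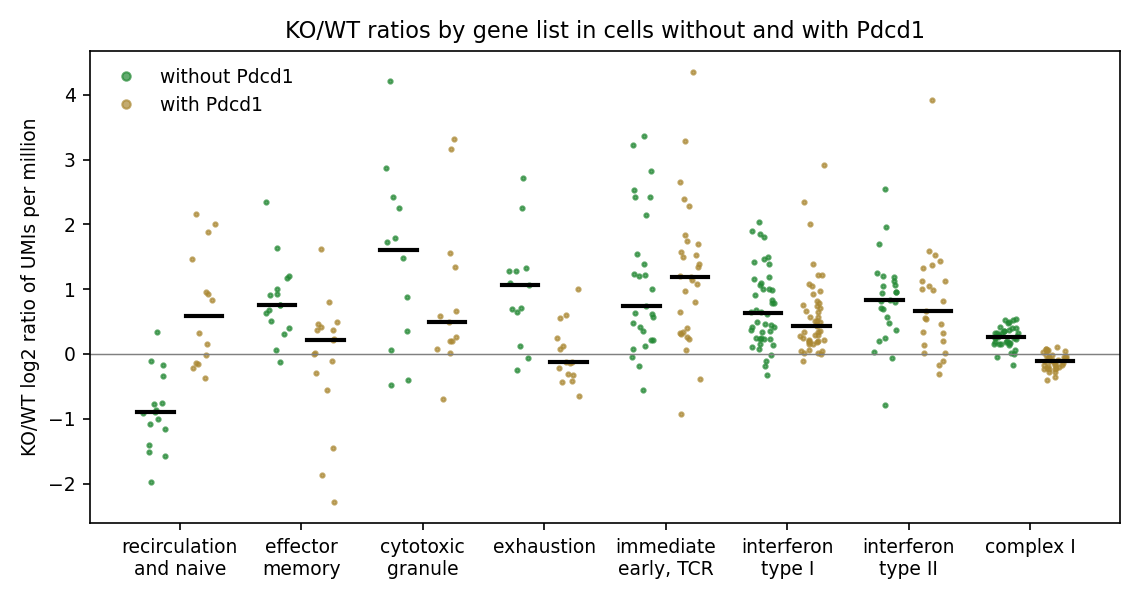
KO over WT log2 ratio of CPM for each gene of the main lists (points) with the list median, in cells without and with Pdcd1. The recirculation median lies below 0 in cells without Pdcd1 (-0.90) and above 0 in cells with Pdcd1 (0.58), while the interferon and immediate early medians lie above 0 in both.

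The plot of ratios by list sets the members beside the cells with Pdcd1, in which 462 genes were higher in KO (5.5%) and 395 lower (4.7%). The recirculation list went the other way there. Of its 14 genes that passed the filter, 7 were called higher in KO cells with Pdcd1 and 0 lower, with a median of 0.58. Ccr7 was at 11.7 CPM in WT and 47.2 in KO cells with Pdcd1 (2.01), and Satb1 at 29.6 and 109 (1.88), both far below their levels in the members. Eomes was at 167 and 45.8 (-1.86) in cells with Pdcd1, opposite to its ratio in the members. Exhaustion genes were called higher in 2 of 15 and lower in 1 (median -0.13) and cytotoxic genes higher in 5 of 13 and lower in 1 (median 0.49). The interferon lists were higher in both, with medians of 0.43 for type I and 0.67 for interferon gamma. With 1 library per genotype, the difference between the sets was not tested.

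The interferon and cytotoxic differences were also measured inside the single classes, where the shares of these classes play no part. A class is a range of counts and can itself be a mixture that differs between the libraries. Within the Ccr7 and Lef1 class, 267 of 3315 genes were higher in KO (8.05%) and 133 lower (4.01%). Type I interferon genes were called higher in 16 of 27 and lower in 0 (median 0.66), and interferon gamma genes higher in 10 of 18 and lower in 1 (median 0.82). Gbp2 rested on 31 UMIs in WT and 90 in KO cells of this class (49.7 and 148 CPM, 1.58, 0.97 to 2.22). Ifit3 rested on 3 and 81 UMIs (4.81 and 134 CPM, 4.79, 3.20 to 7.10). Irf1 was at 148 and 313 (1.09, 0.72 to 1.46). The Ccr7 and Lef1 class of the KO library thus carried higher interferon-response transcripts than that of the WT library.

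This class also differed in effector genes. Cytotoxic genes were called higher in 6 of 9 and lower in 0 (median 1.70), and effector memory genes higher in 10 of 13 and lower in 0 (median 0.85). Gzmb had 13 UMIs in WT and 217 in KO cells of the class (20.9 and 358 CPM, 4.10, 3.30 to 5.03), and Gzma 6 and 123 (9.63 and 203 CPM, interval of the log2 ratio 3.23 to 5.87). A Gzmb UMI was seen in 6 of 67 WT cells and 22 of 61 KO cells of the class (8.96%, 3.36 to 18.5, and 36.1%, 24.2 to 49.4), which had median depths of 9139 and 9901 UMIs. The recirculation list was called lower in 4 of 15 and higher in 0 (median -0.45). Lef1 (-0.89) and Actn1 (-1.04) were called lower, while Ccr7 (-0.07) and Tcf7 (-0.49) were not. The class was defined by Ccr7 and Lef1, so the ratios of these 2 genes in it are shaped by that limit. Summed over the class, Gzma and Gzmb transcripts were thus higher in KO, although Gzmb was seen in only 22 of its 61 KO cells. The plot of ratios for this class shows Gzmb farther from 0 in it than in all members.

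**Figure D4:**
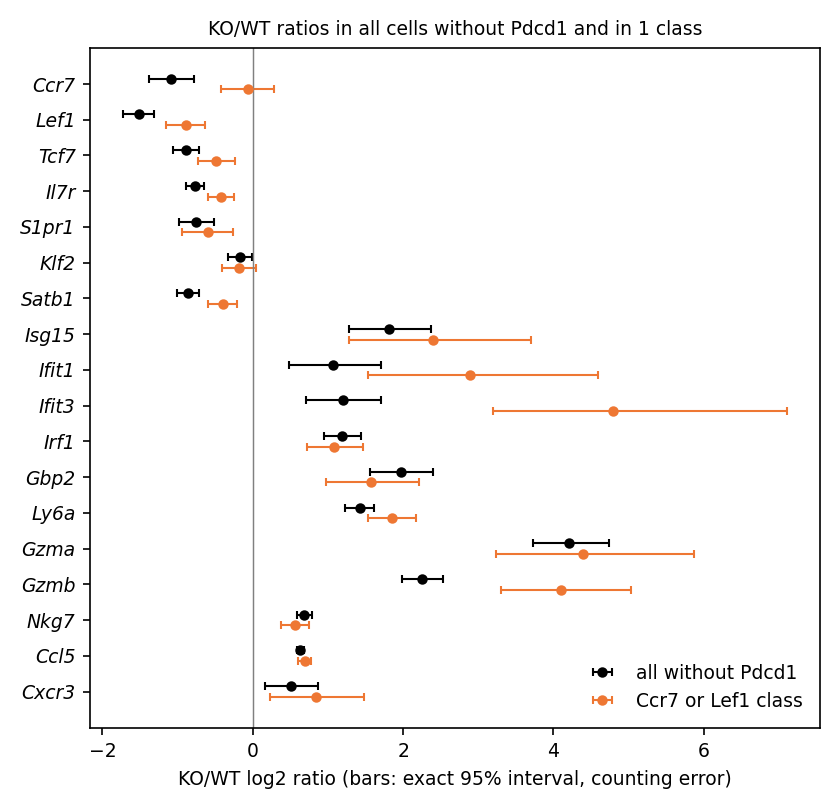
KO over WT log2 ratio (horizontal axis) of chosen genes in all members and in the class with at least 2 UMIs of Ccr7 and Lef1; bars are exact 95% intervals for counting error. Ifit3, Gbp2, Irf1, Gzma and Gzmb lie above 0 in both. Lef1 (-0.89) and Ccr7 (-0.07), which define the class, lie nearer 0 in it than in all members.

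The type I counts of the other classes were different. In the Fcer1g class, in which 223 of 3217 genes were higher in KO (6.93%) and 159 lower (4.94%), type I genes were called higher in 2 of 31 and lower in 7 (median -0.24), against 3 of 22 and 0 for interferon gamma genes (median 0.26). Ifit1 was at 91.7 and 31.3 CPM (-1.55) and Ifit3 at 113 and 49.7 (-1.18) there. The WT values of the Fcer1g class rest on 17 cells with 141790 UMIs in total, and their spread over cells was not tested. In the granzyme class, in which 158 of 2807 genes were higher (5.63%) and 112 lower (3.99%), type I genes were called higher in 4 of 32 and lower in 0 (median 0.31). Immediate early genes were called higher in 13 of 21 genes of the Ccr7 and Lef1 class, 13 of 21 of the Fcer1g class and 14 of 21 of the granzyme class. In the same order, 0, 0 and 1 were called lower. Gzmb was at 14.1 and 381 in the Fcer1g class, from 2 UMIs in WT, and at 804 and 1196 (0.57) in the granzyme class, which was defined by it.

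Several of the largest ratios came from a few barcodes. The 12 genes higher in KO members by the rule were Gzma, Cxcl10, Cxcl9, Tmem176b, Ly6d, Nr4a2, Ifi204, Serpinb9, Klrc1, Dusp5, Ctla4 and Fos. Of these, Cxcl9 had 85.6% and Ifi204 81.7% of its KO UMIs in other-lineage barcodes. Tmem176b had 0 UMIs in WT and 72 in KO members, in 19 cells, which against a floor of 3 UMIs is a log2 ratio of at least 3.27. Ly6d had 0 and 62 UMIs, but in only 6 cells. The 12 lower genes were Cxcl3, Ndufa4, Mgl2, Slpi, Hmox1, Serpinb2, G0s2, Thbs1, Cxcl2, Ccl6, Ccl7 and Clec4n, and other-lineage barcodes held between 87.9% and 100% of the WT UMIs of each but Ndufa4. Thbs1, a matrix glycoprotein, went from 532 to 52.3 CPM (-3.35), but to 1.49 without other-lineage barcodes, and Cxcl2, a neutrophil-attracting chemokine, from 607 to 65.1, but to -0.13 without them.

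Without the other-lineage barcodes, the 12 genes named as lower were Ndufa4, Ctse, Rflnb, Lef1, Igfbp4, Rapgef4, Tdrp, Dapl1, Actn1, Pik3ip1, Txnip and F2rl1. Pik3ip1, a brake on PI3 kinase in resting T cells, was then at a log2 ratio of -1.41 and Txnip, a regulator of glucose uptake, at -1.18. Klf4, Inhba, Nr4a1, Fosb and Bhlhe40 joined the higher genes, though the Inhba UMIs came from 1 KO cell.

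Few transcripts of the respiratory chain, the system in which NDUFA4 works, were called apart from Ndufa4 itself. Of 36 complex I genes 0 were called in either direction (median 0.26), as were 0 of 11 complex IV genes (0.25), 0 of 16 complex V genes (0.20) and 0 of 13 genes of mitochondrial DNA (-0.09). Without other-lineage barcodes 1 of the 11 complex IV genes, Cox5b, was called higher (0.59). AA467197, a paralog of Ndufa4, was called higher in KO members from 22 and 121 UMIs (1.15, 0.48 to 1.87), and its ratio was 1.76 without other-lineage barcodes. It was also called higher in KO cells with Pdcd1 (0.93) and in cycling CD8 T cells (0.86). The other paralog, Ndufa4l2, had 2 UMIs in WT and 0 in KO members. Glycolysis genes were called lower in 3 of 18 and higher in 0 (median 0.04). Without other-lineage barcodes they were called higher in 5 of 15 and lower in 1 (median 0.46).

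The cells with Pdcd1 show what the Pdcd1 limit separates. This contrast was the membership rule itself and is given as a description. In both libraries, 295 of 6138 genes were higher in members than in cells with Pdcd1 (4.81%) and 305 lower (4.97%). The first count was 167 of 4192 tested without barcodes with any UMI of the other-lineage genes named above. It was 64 of 7248 with the rule applied after thinning and 50 of 1631 with thinned cells. The second count was 18 of 7248 with that rule and 88 of 1631 with thinned cells. Within the WT library alone 634 were higher (10.3%) and 1156 lower (18.8%), and within the KO library 804 (9.16%) and 663 (7.55%). The recirculation genes were higher in 13 of 15 and the exhaustion genes lower in 12 of 13. S1pr1 was higher in the members by 3.13 on the log2 scale in WT and 2.40 in KO, and Klf2 by 4.10 and 2.47. Among the leading genes in the members were Inhba, Nsg2, Pde2a, Klf3, Klf2, Tcf7, S1pr1, Lef1, Il6ra, Treml2 and Fam241a. The Inhba UMIs of the members came from other-lineage barcodes in WT, 59 of 59, and from 1 cell in KO. The 12 leading genes in the other direction were Nrgn, Ccl1, Rgs16, Havcr2, Nrn1, Lag3, Gm36723, Ccl3, Tnfrsf4, Gm17745, Tnfrsf9 and Ifng. Lag3 was at -3.30 and -2.15 and Havcr2 at -3.23 and -2.32. The ratio was closer to 0 in the KO library for S1pr1, Klf2, Lag3 and Havcr2. Gzmb was at -3.15 in WT and -1.09 in KO. Complex I genes were lower in members than in cells with Pdcd1 in 18 of 36 in WT (median -0.59) and in 1 of 36 in KO (median -0.19).

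**Figure D5:**
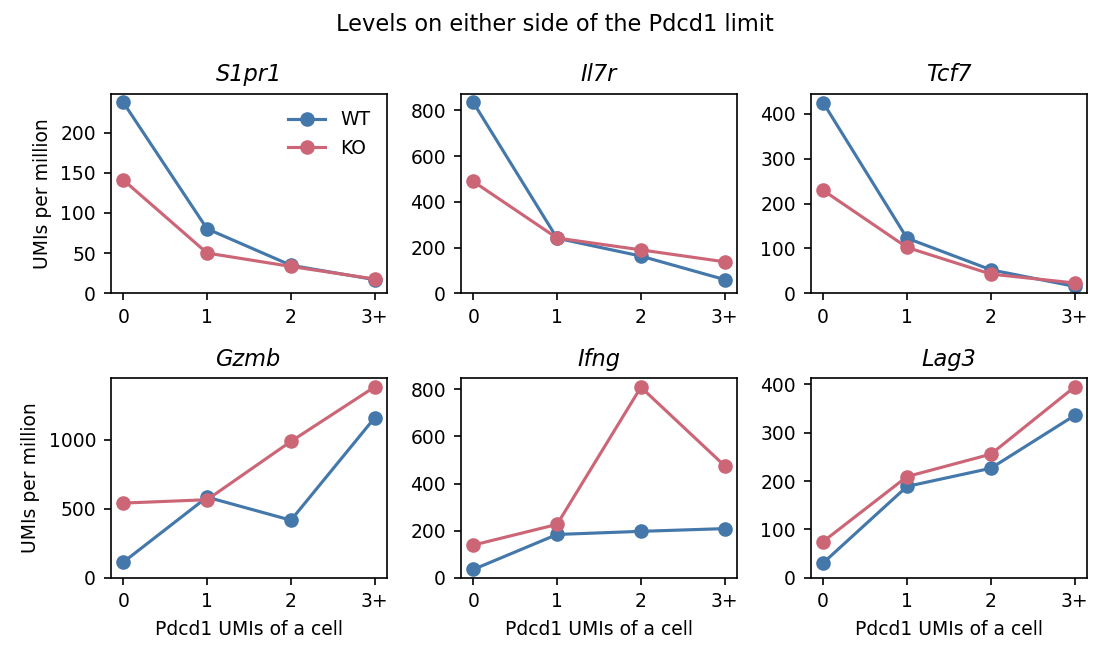
Summed level (CPM, vertical axes) of 6 genes in non-cycling CD8 T cells with 0, 1, 2 or at least 3 Pdcd1 UMIs (horizontal axis) in the WT and KO tumour libraries. Il7r, S1pr1 and Tcf7 are lower at 1 UMI than at 0, and KO Gzmb is at 542 at 0 and 567 at 1 UMI, where WT Gzmb is at 113 and 585.

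Just outside the limit lay 27 WT and 102 KO cells with 1 Pdcd1 UMI. S1pr1 stood at 238 CPM in WT members and 80.3 at 1 UMI, and at 141 and 50.1 in KO. Tcf7 stood at 425 and 123 in WT and at 229 and 102 in KO. Both genes were lower just outside the limit in both libraries, as the plot of levels against Pdcd1 UMIs shows. Gzmb stood at 113 and 585 in WT, but at 542 and 567 in KO. Ifng stood at 35.4 and 184 in WT and at 139 and 227 in KO. At the limit on proliferation genes, 16 WT and 62 KO members had 1 UMI of Mki67 or Top2a, and 4 and 17 cells without Pdcd1 lay just outside with 2.

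T cell receptor beta V genes could be read in few cells of these 3' libraries. Among members, 28 WT and 77 KO cells had one. The leading gene was Trbv13-2 in WT, with 4 of 28 cells (14.3%, 4.03 to 32.7), and Trbv13-1 in KO, with 11 of 77 (14.3%, 7.35 to 24.1). Cells with Pdcd1 were led by Trbv19 in WT, with 25 of 50 (50%, 35.5 to 64.5), and by Trbv14 in KO, with 51 of 189 (27.0%, 20.8 to 33.9). The leading beta V gene thus took a smaller share of the members than of the cells with Pdcd1, with intervals that overlap in KO. For alpha V genes the leading share was 10% of 40 members and 20.5% of 44 cells with Pdcd1 in WT. In KO it was 17.9% of 95 and 29.4% of 177, and the alpha intervals overlap in both libraries. Cells of 1 clone are not independent, and the mouse of origin is unknown.

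The spleen libraries give non-cycling CD8 T cells of another organ, by the same rule without its Pdcd1 limit. Spleen cells were sorted for CD11b, so T cells there were few, 17 in WT and 42 in KO. Of these, 0 had a Pdcd1 UMI, with exact upper limits of 19.5% and 8.41%. Ccr7 had a UMI in 70.6% of WT and 69.0% of KO spleen cells, beside 56 of 129 and 74 of 322 tumour members. Gzmb was in 17.6% and 7.14% and Ifng in 0% of both. The residency receptor Cxcr6 was in 11.8% and 38.1% of spleen cells, and in 40.3% and 55.3% of tumour members before thinning. After thinning, the Cxcr6 shares of the tumour members were 24.8% and 30.4%, a difference of 5.55 points (-4.00 to 14.1).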

How the data were processed

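The series holds 4 libraries of a 10x Chromium 3' kit, of which the tumour libraries carry the comparison. The deposited values are UMI counts per gene and barcode, not normalized, for 32285 genes. Per the file headers, Cell Ranger 6.0.0 wrote the matrices, whereas Cell Ranger 3.1, Seurat 3.1 and Seurat 3.1.4 and the builds mm10 and GRCm38 come from the submitters' processing notes. Barcodes were kept with at least 500 UMIs, 200 genes and at most 10% mitochondrial UMIs. No doublet caller was used in the main values, and leaving out the barcodes with the highest Scrublet scores (scanpy 1.11.5) was an alternative. UMIs were summed per library and scaled to 1000000 (CPM). A log2 ratio of KO over WT has an exact conditional binomial interval, a share a Clopper-Pearson interval and a difference of shares Newcombe's (scipy 1.17.1, statsmodels 0.14.6), all at 95%, and these cover counting error only. A gene at 0 in one library is set against a floor of 3 counts in that library. Thinning drew 2000 UMIs per cell without replacement, with shallower cells left out. B cells used for background shares were gated by their own genes.

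The members and the 36 gene lists were chosen with earlier results of these data known, so no list counts as independent support. Genes named by rule were the 12 in each direction whose interval bound nearest 0 lay farthest from it, leaving out genes of haemoglobins, immunoglobulins, ribosomes, T cell receptors and mitochondrial DNA. For members against cells with Pdcd1, this had to hold in both libraries. Some genes that the rule or the lists would name are not reported here, and the lists and classes were formed without them. Listed genes, the proposed markers and Ndufa4 are named besides. The ratio and interval functions were tested on simulated data. Alternatives changed the quality limits, the rule, the scale, the count filter, the cell weights and the barcodes with transcripts of other lineages.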

Additional observations from a re-analysis of the deposited data

Results flagged for a closer look

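Some KO over WT log2 ratios pointed one way in the CD8 T cells without Pdcd1 and the other way in those with Pdcd1. There is 1 library per genotype, so the difference between the sets was not tested. Among the recirculation genes, Ccr7 stood at -1.08 and 2.01, Satb1 at -0.86 and 1.88, Dapl1 at -1.57 and 2.17, and Il7r at -0.772 and 0.827. The levels of Ccr7 and Dapl1 in cells with Pdcd1 were under 50 counts per 1000000 (CPM).

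Eomes stood at 0.758 without and -1.86 with Pdcd1, and Ikzf2 at 1.09 and -1.17. In the cells without Pdcd1, the rule applied after thinning turned both, to -1.12 and -0.67. Weighting the KO classes, which Ikzf2 helps to define, to the WT shares turned Ikzf2 to -0.28. The T cell receptor gamma genes Tcrg-C1 (1.58 and -1.01), Tcrg-C2 (1.8 and -1.21) and Trgv2 (1.07 and -0.873) went with Ikzf2 in sign, and Tcrg-C2 (-0.45) and Trgv2 (-0.24) also turned under the thinned rule. The myeloid and NK cell genes Fcgr3 (-0.85 and 1.28) and Cst3 (-0.618 and 0.941) went the other way. Without other-lineage barcodes Cst3 was higher in the cells without Pdcd1 as well (0.75), and Fcgr3 had 8 UMIs in WT and 11 in KO, below the filter.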

How the results depend on the processing

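Alternatives were recomputed for the shares, gene counts, list medians and single-gene ratios. Of these, 1053 left the value near the main one, 174 moved it and 24 reversed it. Near meant within the interval of a ratio or of a difference of shares, or within the median bounds of a list's genes. For a gene count it meant within 1.5-fold. The filters of 20 and 200 UMIs cannot change a single-gene ratio, so those alternatives were near by construction. Applying the whole rule after thinning to 2000 UMIs gave a difference in the share of kept barcodes of 8.88 points and in the share of non-cycling CD8 T cells of 4.00. It gave medians of -0.60 for recirculation, 0.36 for effector memory, 0.33 for cytotoxic, 0.043 for exhaustion and 0.056 for complex IV genes, and reversed Ccl5 (-0.039), Ccr7 (0.11), Havcr2 (-0.00038), Ikzf2 (-0.67), Eomes (-1.12), Ccl3 (0.22), Cst3 (0.90), Tcrg-C2 (-0.45) and Trgv2 (-0.24). The members then include cells with Pdcd1 in their unthinned counts. They can also include cells with Cd4, Foxp3, C1qa or more of Mki67 and Top2a in those counts. Non-cycling CD8 T cells numbered 323 in WT and 980 in KO by the thinned rule, against 271 and 756 in the main values. The share of non-cycling CD8 T cells without Pdcd1 differed by -9.43 points (-18.1 to -0.648) when barcodes with any UMI of Lyz2, Cd79a, Mlana, Hbb-bs or Trdc were left out, and by -7.09 (-14.1 to -0.0886) with at least 2 Cd8 UMIs. Weighting the KO classes to the WT shares gave medians of -0.52 for recirculation and 0.49 for effector memory genes, and reversed Ikzf2 (-0.28) and Trgv2 (-0.12). Ccr7, Lef1 and Ikzf2 are among the genes that define the classes, so the weighting acts on them directly. Without other-lineage barcodes the immediate early median was 1.13 and Thbs1 (1.49), Ccl3 (1.86) and Cst3 (0.75) reversed. Without the Fcer1g class as well, the NK receptor median was 2.65, Ccl3 was at 1.44 and Cst3 at 0.45. Ccl3 also reversed without the highest Scrublet scores (0.64) and without barcodes with any such UMI (0.55). Cst3 reversed to between 0.51 and 1.15 with equal cell weights (0.55), thinned cells (0.51), 2 Cd8 UMIs (1.15) and without any such UMI (0.87), and Inhba with equal weights and with thinned cells (0.47 in both). The scale without mitochondrial genes gave -0.20 for genes of mitochondrial DNA. Genes higher and lower in KO members numbered 224 and 80 of 2856 tested with a filter of 200 UMIs. With thinned cells they numbered 226 and 80 of 2698, beside 615 and 318 of 7101 in the main values. Genes higher in members than in cells with Pdcd1 in both libraries numbered 457 of 8554 tested with a filter of 20 UMIs and 87 of 2060 with 200. They numbered 50 of 1631 with thinned cells, 167 of 4192 without barcodes with any such UMI and 64 of 7248 with the thinned rule. Genes lower there numbered 132 of 2060, 88 of 1631 and 18 of 7248 with the filter of 200, thinned cells and the thinned rule. Without thinning, the difference in shares was 8.42 points for Gzmk, 19.9 for Gzma, 42.0 for Gzmb, 26.1 for Ifng and 15 for Cxcr6, and with 1000 UMIs it was -9.90 for Tcf7. The class limits, the gene lists and the other-lineage limit were chosen after the data had been seen. No paired analysis was possible because each genotype is 1 pooled library, and for the same reason no library could be left out. The number of cells limits the class values: the Fcer1g class of the WT library holds 17.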

Other observations

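Other genes of the members fall outside the lists above. Costimulatory receptors were called higher in KO members in 4 of 12 and lower in 0 (median 0.45). Cd28 was at 103 CPM in WT and 260 in KO (1.34), and Icos at 37.2 and 133 (1.84). Residency genes were called higher in 4 of 8 and lower in 1 (median 0.59). Cxcr6, which holds T cells in tissue, was at 135 and 237 (0.81), while Itgae, encoding CD103, was at 25.4 and 12.4 (-1.03). The cytokine receptor Il27ra was at 122 and 66.2 (-0.88), and Il2ra, the high-affinity chain of the IL-2 receptor, at 2.72 and 19.0. Antigen presentation genes of class I were called higher in 3 of 19 and lower in 0 (median 0.38), and in 1 of 19 without other-lineage barcodes (median 0.31). Heat shock genes were called higher in 3 of 11 and lower in 0 in all members (median 0.45), and in 7 of 11 in the Fcer1g class.

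Cells with Pdcd1 held a larger Fcer1g class in WT than in KO, at 52.1% and 35.5%, the reverse of the members. Their granzyme class was 28.2% and 43.8%, in the same direction as in the members, and their Ccr7 and Lef1 class 6.34% and 7.14%.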
